A study of Mus musculus with 16 samples.

Results

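The genes described here are 48 genes of protein folding in the endoplasmic reticulum (ER) and of the unfolded protein response, taken by name from the 19938 genes measured. Each was read from its probe set with that single gene symbol, or from the one with the highest mean signal where several existed, and all 48 were measured. They comprise 22 chaperones and folding enzymes, 11 genes of ER degradation, 8 of translocation, glycosylation and export, 6 sensors and transcription factors, and Nucb2, a calcium-binding protein of the secretory pathway.

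Secreted and membrane proteins enter the ER through the Sec61 channel, are glycosylated and cut by signal peptidase, and fold with the help of chaperones and disulfide isomerases. Proteins that fail to fold are drawn back to the cytosol and degraded (ER-associated degradation). The membrane sensors Ern1 (IRE1), Atf6 and Eif2ak3 (PERK) detect unfolded protein: Ern1 cuts the Xbp1 mRNA so that an active transcription factor is made, Atf6 is itself cleaved into one, and Eif2ak3 slows translation and induces Ddit3 (CHOP). In dendritic cells (DCs), IRE1 and Xbp1 have been studied most in the CD8+ lineage, which cross-presents antigen. These arrays report 1 value per gene and do not show Xbp1 splicing or the cleavage of Atf6.

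The data are 16 arrays (Affymetrix Mouse Gene 1.0 ST) of RNA from B6 mice that either lacked Ciita, the transactivator of MHC class II genes (Ciita -/-, KO), or had both copies (Ciita +/+, WT). All 8 mice carried Zbtb46 GFP/+, a reporter allele at a transcription factor gene of classical DCs. Each mouse gave 1 array of CD24+ DCs and 1 of CD172a+ DCs, sorted either from spleen without treatment or from bone marrow (BM) grown for 9 days in 5% Flt3l, with gamma interferon added at the end and LPS for the last 4 hours to activate the cells. The 8 groups of tissue, subset and genotype thus held 2 arrays, or 2 mice, each. The labels give the time in gamma interferon once as 16 and once as 22 hours, and give no ages.

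All cultured samples were activated, so origin, culture and activation cannot be told apart in any comparison of culture with spleen. The Ciita probe set is a weak check of the labels. In cultured CD24+ cells Ciita lay at 10.51 and 10.85 in WT and at 9.70 and 8.14 in KO (log2), but in spleen CD24+ cells at 10.97 and 11.05 in WT and at 11.18 and 10.90 in KO. The sources used here do not name the exons removed, and a probe set outside them would check nothing. The class II genes that Ciita drives were lower in KO in each group, with 7 of 8 past the threshold in spleen CD24+ cells and 8 of 8 in the other 3 groups.

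Markers of the sorted cells were checked before the members. Over 10 markers of the cDC1 lineage the mean log2 signal was 12.18 to 12.43 in spleen CD24+ arrays and 8.74 to 8.91 in spleen CD172a+ arrays. In culture it was 10.64 to 11.02 in CD24+ and 8.61 to 8.90 in CD172a+ arrays. Over 10 markers of the cDC2 lineage it was 10.37 to 10.46 in spleen CD172a+ arrays but 7.18 to 7.39 in cultured CD172a+ arrays, against 6.55 to 6.74 in cultured CD24+ arrays. Cultured CD172a+ cells kept high Sirpa (the CD172a antigen itself, 11.07 to 11.37) and Irf4, while Clec4a4, Esam, Cd4, Cd209a and Clec10a were low in them. Between the cultured subsets 4 of the 10 cDC2 markers passed as lower in CD24+ cells and none as higher, against 10 lower in spleen. The label of cultured CD172a+ cells thus rests on the sort marker and a part of this list. In bulk samples, fewer cells of a type and less RNA per cell cannot be told apart.

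Arrays of KO mouse 2 of the culture and of KO mouse 2 of the spleen, which are different mice, stood apart from the others. The cultured CD24+ array of KO mouse 2 had Xcr1, a cDC1 receptor, at 9.58 against 10.4 to 10.9 in the other 3 cultured CD24+ arrays, and Sirpa at 9.17 against 8.36 to 8.43. The main counts of genes past the threshold in cultured CD24+ cells are therefore given with and without it. Other counts include it unless stated. Its mean over 3 monocyte markers was 7.35 against 6.92 to 7.02, and over 6 T and NK cell markers 6.20 against 5.83 to 5.90. The cultured CD172a+ array of the same mouse shared this, with 6.88 against 6.48 to 6.61 and 6.11 against 5.83 to 5.90 in the other 3 cultured CD172a+ arrays. The spleen CD24+ array of KO mouse 2 had a mean of 9.08 over 8 neutrophil markers against 6.62 to 7.61 in the other 3 spleen CD24+ arrays, and 7.93 over 3 erythroid markers against 6.85 to 7.27.

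In activated cultured CD24+ cells 7 of 22 ER chaperones and folding enzymes and 1 gene of ER degradation were lower in KO than in WT. Thus 8 of the 48 genes passed the threshold (limma, Benjamini-Hochberg adjusted p under 0.05 over all genes), and all 8 fell, by 1.72-fold to 4.10-fold. Over all 19938 genes, 0.0953% passed in this comparison and 0.0853% were lower. The median difference (KO minus WT, log2) of the 48 genes was -0.34, with 44 of them negative, against a median of -0.0039 over all genes. At an unadjusted p under 0.05, 26 of the 48 were lower and none higher, against 2.78% and 4.27% of all genes. The 2 KO arrays both lay below the 2 WT arrays for 26 of the 48, against 15.4% of all genes. That count was not higher in these cells than in spleen CD24+ cells, where it was also 26 (16.4% of all genes), and it was 21 in spleen CD172a+ cells (19.5%) and 20 in cultured CD172a+ cells (14.5%).

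Sdf2l1, an ER protein that works with Hspa5 and its J-domain partners, read 10.75 and 11.13 in the WT arrays of mouse 1 and mouse 2 and 9.27 and 8.86 in the KO arrays. It fell by 1.87 ± 0.14 (SE) on the log2 scale, 3.67-fold (adjusted p = 8.0e-05). The SE here and below rests on a spread per gene pooled over spleen and culture, so it is not the spread of the arrays compared alone. The disulfide isomerase Pdia4 read 9.67 and 10.11 in WT and 8.18 and 7.75 in KO. It fell by 1.93 ± 0.15, 3.80-fold (adjusted p = 8.0e-05). Creld2, a secreted and ER-resident protein induced by ER stress, read 11.01 and 11.60 in WT and 9.57 and 8.96 in KO. It fell by 2.04 ± 0.20, 4.10-fold (adjusted p = 0.00058). In each of these 3 genes the gap between the genotypes was larger than the spread within either, and KO mouse 2 was the lower KO array.

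The other 5 changed less. Hyou1, a large chaperone and exchange factor of the ER, read 9.17 and 9.45 in WT and 8.47 and 8.15 in KO, a fall of 1.00 ± 0.11 (adjusted p = 0.0026). Hsp90b1 (GRP94), the ER form of HSP90, read 12.62 and 12.90 in WT and 11.97 and 11.61 in KO, a fall of 0.97 ± 0.15 (adjusted p = 0.037). Dnajc3, a J-domain co-chaperone, read 10.35 and 10.65 in WT and 9.79 and 9.61 in KO, a fall of 0.80 ± 0.11 (adjusted p = 0.011). Groups did not overlap in any of the 3, although Hsp90b1 came closest to the threshold.

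Manf, a small secreted protein kept in the ER until stress, read 11.15 and 11.34 in WT and 10.54 and 10.39 in KO, a fall of 0.78 ± 0.10 (adjusted p = 0.0071). Syvn1 (HRD1), the ubiquitin ligase of ER-associated degradation, read 10.41 and 10.70 in WT and 9.80 and 9.32 in KO, a fall of 0.99 ± 0.15 (adjusted p = 0.025). Syvn1 was the 1 gene of ER degradation among the 8, and the other 7 are chaperones or folding enzymes.

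**Figure D1:**
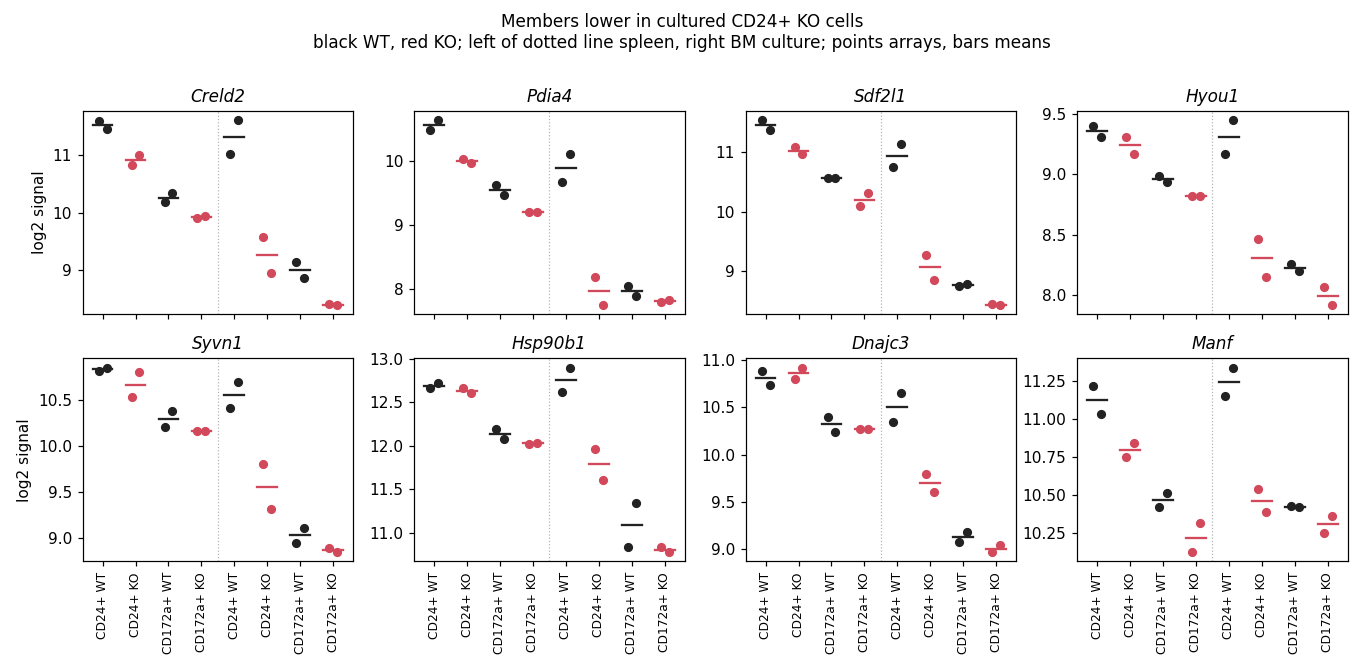
Log2 signal (y axis) of the 8 genes that were lower in cultured CD24+ KO cells, in the 8 groups (x axis), with 1 point per array and a bar at the mean of 2. In culture, CD24+ WT cells had the highest mean for each gene, and the CD24+ KO arrays lay below both CD24+ WT arrays.

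By role, of the 22 chaperones and folding enzymes, 7 fell and all 22 differences were negative (median -0.60). Of the 11 genes of ER degradation 1 fell (median -0.19), and of the 8 genes of translocation, glycosylation and export none passed (median -0.24, 4 lower at an unadjusted p under 0.05). Of the 6 sensors and transcription factors none passed either, although all 6 differences were negative (median -0.29). Among genes that missed the threshold, Ddit3 had a difference of -0.90 ± 0.19 (adjusted p = 0.23), Pdia6 one of -0.97 ± 0.22 (adjusted p = 0.32), Herpud1 one of -0.87 ± 0.20 (adjusted p = 0.35), Xbp1 one of -0.68 ± 0.16 (adjusted p = 0.36) and Hspa5 (BiP), the main ER chaperone, one of -0.60 ± 0.12 (adjusted p = 0.22). Differences near 0 included those of Sel1l (0.03 ± 0.16), the partner of Syvn1, the peptidyl-prolyl isomerase Ppib (-0.05 ± 0.09) and the ubiquitin-conjugating enzyme Ube2j1 (-0.05 ± 0.10).

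These counts rested on few arrays. Read as the mean of its 2 probe sets, of which the dimmer is left out above, Pdia4 fell by 1.20 (adjusted p = 0.00027). Without the array of KO mouse 2 that stood apart, 4 of the 8 passed (Pdia4, Sdf2l1, Creld2 and Hyou1, with differences of -1.71, -1.67, -1.73 and -0.84), while 0.0702% of all genes did, and the median of the 48 was -0.21 with 39 negative. By role, the median was then -0.35 for chaperones and folding enzymes (4 of 22 past the threshold), -0.11 for ER degradation, -0.11 for translocation, glycosylation and export, and -0.05 for the sensors and transcription factors. Without KO mouse 1, 27 genes passed, all lower, but so did 6.36% of all genes, and without WT mouse 2, 3 genes passed (0.0502% of all genes). Fitted on the culture arrays alone, only Sdf2l1 passed (adjusted p = 0.039). Of 10 cDC1 markers none passed between the genotypes in these cells (1 higher and 2 lower at an unadjusted p under 0.05), while their mean over the list was 10.64 in KO mouse 2 against 10.94 to 11.02 in the other 3 arrays. The part of that shift in the fall of the 8 genes was not tested beyond the values without that array.

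Of 17 measured chaperones outside the ER none passed in cultured CD24+ cells. They include Hspa8, Hsp90aa1 and Dnajb1 of the cytosol, and Hspd1 and Hspe1 of mitochondria. None of the 17 reached an unadjusted p under 0.05, and the median difference was 0.10. Among further ER genes none was lower at the threshold. At an unadjusted p under 0.05, 8 of 41 genes of translocation, glycosylation and export were lower and 2 higher, and 32 of the 41 differences were negative. In the same way 1 of 23 folding genes was lower and 1 higher, 1 of 20 degradation genes lower and 2 higher, and 1 of 16 regulators lower and 3 higher. Their medians were -0.06 for 23 of folding, 0.08 for 20 of degradation, -0.08 for 41 of translocation, glycosylation and export, and 0.02 for 16 regulators. The single call was Rtcb, the ligase that rejoins Xbp1 mRNA after Ern1 has cut it. Rtcb read 10.80 and 10.77 in WT and 11.22 and 11.18 in KO, a rise of 0.41 ± 0.06 (adjusted p = 0.015).

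Promoters of the members were read from RefSeq (GRCm38.p6), where 40 of the 48 had an entry. The 250 bases before the annotated start were searched on both strands for 4 known elements. The ER stress response element (ERSE, CCAAT, 9 bases of any kind, CCACG), which Atf6 binds with NF-Y, was found in 9 of 40 members (22.5%) and in 0.13% of 27025 genes with such a window. ERSE-II (ATTGG, 1 base of any kind, CCACG) was found in Herpud1 alone, 2.5% of members against 0.037% of all. The unfolded protein response element (TGACGTGG), which Xbp1 binds, was found in Sec24d, Txndc11, Txndc5 and Ube2j1 (10% against 0.603%), and the composite element of Atf4 and CHOP in its TGATGCAA form in Atf3 and Herpud1 (5% against 0.918%). No member held both an ERSE and the unfolded protein response element. The members were chosen by name as genes of this response and the elements are known ones, so these shares are a description and no test.

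Of the 8 genes lower in cultured CD24+ KO cells, 6 had a window and 4 of these held an ERSE. They are shown with Hspa5, the textbook ERSE gene, which missed the threshold here, with Derl3, the 1 gene called in spleen, and with Herpud1, the ERSE-II gene. Each line gives the 160 bases before the start, 5′ to 3′ on the strand of the gene, with the match in capitals (an ERSE on the opposite strand begins with CGTGG, and Herpud1 shows ERSE-II).
Creld2, + strand, chr15:88819486-88819645: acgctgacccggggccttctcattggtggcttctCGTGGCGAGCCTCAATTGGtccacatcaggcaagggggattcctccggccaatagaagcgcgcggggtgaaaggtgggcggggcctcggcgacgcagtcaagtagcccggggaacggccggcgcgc
Dnajc3, + strand, chr14:118937772-118937931: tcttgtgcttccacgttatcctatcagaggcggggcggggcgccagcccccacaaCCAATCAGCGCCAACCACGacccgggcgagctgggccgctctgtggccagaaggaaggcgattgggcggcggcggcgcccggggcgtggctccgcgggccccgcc
Hsp90b1, - strand, chr10:86705445-86705604: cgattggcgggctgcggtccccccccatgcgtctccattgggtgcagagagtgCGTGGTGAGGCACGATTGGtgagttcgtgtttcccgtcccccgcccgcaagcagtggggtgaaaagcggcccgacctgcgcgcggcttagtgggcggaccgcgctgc
Syvn1, + strand, chr19:6046416-6046575: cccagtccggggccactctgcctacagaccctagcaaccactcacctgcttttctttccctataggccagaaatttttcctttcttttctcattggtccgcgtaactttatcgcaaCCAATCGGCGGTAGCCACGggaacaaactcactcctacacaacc
Hspa5, + strand, chr2:34771930-34772089: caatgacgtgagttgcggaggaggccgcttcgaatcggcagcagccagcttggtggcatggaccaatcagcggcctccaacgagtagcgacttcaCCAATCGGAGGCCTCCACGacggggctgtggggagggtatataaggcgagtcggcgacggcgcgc
Derl3, + strand, chr10:75893238-75893397: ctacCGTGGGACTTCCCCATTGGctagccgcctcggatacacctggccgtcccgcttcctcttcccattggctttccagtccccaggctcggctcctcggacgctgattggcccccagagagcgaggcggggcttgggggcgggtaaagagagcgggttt
Herpud1, + strand, chr8:94386269-94386428: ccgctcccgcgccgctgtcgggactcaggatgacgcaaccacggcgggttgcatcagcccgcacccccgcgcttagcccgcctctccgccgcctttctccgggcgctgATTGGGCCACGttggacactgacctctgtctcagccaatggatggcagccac

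The ERSE lay 126 to 108 bases before the start in Creld2, 105 to 87 in Dnajc3, 44 to 26 in Syvn1 and 65 to 47 in Hspa5. Hsp90b1 held one at 107 to 89 and another, outside the printed stretch, at 212 to 194. In cultured CD24+ cells the 9 members with an ERSE had a median KO minus WT difference of -0.80 (from -2.04 to -0.22, 4 past the threshold), against -0.31 for the 31 members without (from -1.93 to 0.17, 2 past it). Without the array of KO mouse 2 these medians were -0.58 (1 past the threshold) and -0.15 (2 past it). The same medians were -0.29 and -0.14 in cultured CD172a+ cells, -0.17 and -0.15 in spleen CD24+ cells, and -0.13 and -0.03 in spleen CD172a+ cells. Sdf2l1 and Pdia4, which fell more than most, had windows without a match to these letters, which says nothing of factor binding. By role, 7 of the 9 members with an ERSE were chaperones or folding enzymes and 2 were genes of ER degradation. All 22 chaperones and folding enzymes together had a median of -0.60 in cultured CD24+ cells. The part of role in the medians by motif was not tested. These medians are a description without a test.

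Fewer genes passed in the other 3 groups. In cultured CD172a+ cells none of the 48 passed (limma, with 0.0602% of all genes called), 7 were lower and 1 higher at an unadjusted p under 0.05 (2.57% and 4.06% of all genes), and the median was -0.14. Herpud1, a membrane protein of the degradation complex that is induced by ER stress, read 10.39 and 10.45 in WT and 9.99 and 9.37 in KO (-0.74 ± 0.20, adjusted p = 0.48). Pdia4, at the top of the list in CD24+ cells, read 8.04 and 7.89 in WT and 7.80 and 7.82 in KO in CD172a+ cells.

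In spleen CD24+ cells 1 of the 48 passed, with 0.0602% of all genes called and 0.0552% lower. Derl3, a Derlin of the retrotranslocation complex best known from secretory cells, read 7.67 and 7.61 in WT and 7.10 and 6.94 in KO. It fell by 0.61 ± 0.08 (adjusted p = 0.012), and both WT arrays lay above the other 6 spleen arrays. The call held in 1 of 4 fits that left out an array (that without KO mouse 1), and without KO mouse 2 the difference was -0.53 (adjusted p = 0.17). Of 7 plasma cell markers none passed between these groups and none reached an unadjusted p under 0.05. Mzb1 read 7.19 and 7.16 in WT and 6.86 and 7.15 in KO, and Jchain 7.99 and 6.52 in WT and 7.43 and 7.22 in KO. Of 8 neutrophil markers 5 were higher in KO at an unadjusted p under 0.05, with list means of 7.31 and 9.08 in KO and 7.61 and 6.62 in WT, and the part of this in the Derl3 difference was not tested beyond the leave-out fits.

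The other differences in spleen missed the threshold. In spleen CD24+ cells 7 members were lower at an unadjusted p under 0.05 and none higher (1.86% and 2.66% of all genes, median -0.13), among them Creld2 (-0.60 ± 0.20), Pdia4 (-0.56 ± 0.15), Sdf2l1 (-0.43 ± 0.14) and Manf (-0.33 ± 0.10). In spleen CD172a+ cells none of 48 passed (limma, with 0.0802% of all genes called), 4 were lower and 1 higher at an unadjusted p under 0.05 (3.15% and 2.07% of all genes), and the median was -0.06. Sdf2l1, Manf, Pdia4 and Calr were the 4, at -0.37 ± 0.14, -0.25 ± 0.10, -0.35 ± 0.15 and -0.34 ± 0.14.

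**Figure D2:**
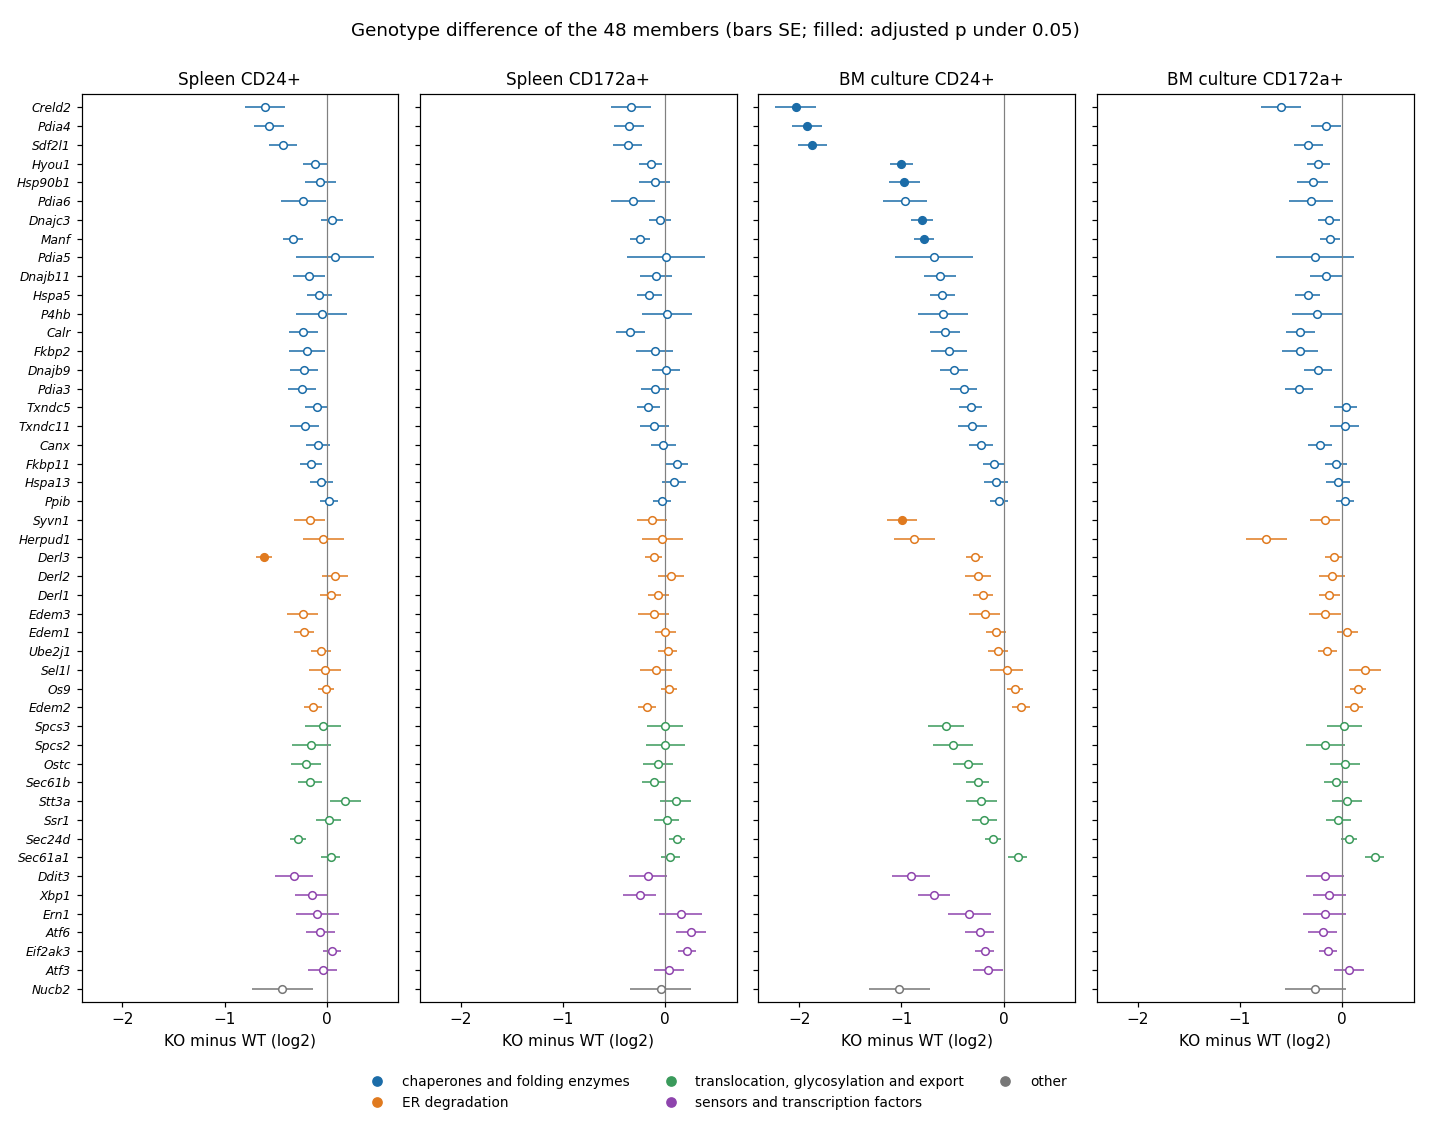
KO minus WT difference on the log2 scale (x axis, bars SE) for the 48 genes (y axis, grouped and coloured by role) in 4 panels, 1 per tissue and subset, with filled points past the threshold. The 8 filled points of cultured CD24+ cells lie between -2.04 and -0.78, and Derl3 is the single filled point in spleen CD24+ cells.

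Whether the genotype difference itself differed between subsets was tested on the CD24+ minus CD172a+ difference of each mouse. In culture 2 of the 48 passed, with 0.0401% of all genes called and 0.015% lower. The KO minus WT difference was lower in CD24+ than in CD172a+ cells, by -1.55 ± 0.18 for Sdf2l1 and by -1.77 ± 0.21 for Pdia4 (both adjusted p = 0.049). Creld2 followed with -1.44 ± 0.28 (adjusted p = 0.36). The median over the 48 was -0.21 with 45 negative, and 14 were lower and none higher at an unadjusted p under 0.05 (2.57% and 2.5% of all genes). Without KO mouse 2 that median was -0.14 with 34 negative. Neither call held without KO mouse 2, without WT mouse 1 or without WT mouse 2, while 9 genes passed without KO mouse 1, where 0.632% of all genes did. Both calls also ended under quantile normalization (adjusted p = 0.056), median centring of each array (0.063 for Sdf2l1, 0.068 for Pdia4), the mean of probe sets, all probe sets, a variance trend and culture mice alone. In spleen none passed (limma, with 0.00502% of all genes called), and 3 were lower and none higher at an unadjusted p under 0.05 (1.87% and 2.73% of all genes).

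Between tissues, the genotype difference of CD24+ cells did not pass for any of the 48 (limma, with 0.00502% of all genes called), although 13 were lower and 2 higher in culture at an unadjusted p under 0.05 (2.56% and 2.36% of all genes). Sdf2l1 came nearest, at -1.45 with an adjusted p of 0.105. Without KO mouse 1 of the culture 12 genes passed (2.53% of all genes), without WT mouse 1 2 did (0.015%), and without KO mouse 2 none did. For CD172a+ cells none passed (0.0201% of all genes called), with 3 lower and 1 higher at an unadjusted p under 0.05 (2.01% and 3.3% of all genes).

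More genes passed between the subsets than between the genotypes. In spleen 29 of the 48 were higher and 6 lower in CD24+ cells (mean of both genotypes, limma), where 29.1% of all genes passed, 15.6% higher and 13.4% lower. In culture 35 were higher and 3 lower, where 24.9% of all genes passed, 11.2% higher and 13.7% lower. These fits pool the spread of spleen and culture. Fitted on the arrays of 1 tissue alone, 33 were higher and 7 lower in spleen (33% of all genes passed). In culture that fit left 27 higher and 1 lower (19.2% of all genes passed). The median CD24+ minus CD172a+ difference was 0.36 in spleen and 0.56 in culture, against 0.03 and -0.03 over all genes. Within the mice, CD24+ was the higher array in 4 of 4 for 33 genes in spleen and 34 in culture, against 26.8% and 15.9% of all genes. In culture the CD24+ WT group had the highest mean of the 4 groups for 40 of the 48, against 25.3% of all genes.

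By role, of 22 chaperones and folding enzymes, 18 were higher and 2 lower in spleen, and 17 higher and 1 lower in culture. Of 8 genes of translocation, glycosylation and export, 6 were higher in spleen and 5 in culture, with none lower. Of 11 genes of ER degradation, 3 were higher and 1 lower in spleen, and 6 higher and 2 lower in culture. The 6 sensors and transcription factors had 1 higher and 3 lower in spleen but 6 higher in culture.

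Markers of other cells moved with the subsets, more of them in spleen. Of 7 macrophage markers 5 were lower in spleen CD24+ cells (median -1.49), with a log2 summed level of 10.46 to 10.92 against 12.18 to 12.80 in CD172a+ arrays. Of 6 markers of plasmacytoid DCs 4 were higher and 2 lower (summed level 11.01 to 11.18 against 10.81 to 10.93), and of 8 neutrophil markers 3 were higher (9.77 to 12.61 against 9.57 to 10.11). Of 6 B cell markers 1 was higher and 2 lower in spleen CD24+ cells (10.29 to 10.76 against 11.68 to 11.85). In culture 1 of the 7 macrophage markers was lower, and 2 of the 6 plasmacytoid DC markers were higher and 2 lower. The summed level of these 6 was 11.68 to 11.87 in cultured CD24+ arrays against 12.52 to 12.61 in CD172a+ arrays. No neutrophil or B cell marker passed in culture. Their part in the subset differences was not tested.

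The largest single difference was that of Pdia5, a disulfide isomerase known to act on Atf6. In spleen CD24+ arrays it read 11.25 and 11.14 in WT and 11.38 and 11.17 in KO, and in CD172a+ arrays 6.59 and 6.73 in WT and 6.66 and 6.69 in KO. The difference was 4.57 ± 0.27, 23.7-fold (adjusted p = 6.3e-08), and it was 4.41 to 4.73 in the 4 mice. In culture Pdia5 read 8.87 and 9.58 in CD24+ WT, 9.35 and 7.74 in CD24+ KO, and 7.13 to 7.73 in CD172a+ arrays, a difference of 1.49 ± 0.27 (adjusted p = 0.0013). The groups nearly met there, since KO mouse 2 read 7.74, and without that array the difference was 1.89.

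Nucb2 was higher in CD24+ cells of both tissues. In spleen it read 10.61 to 11.18 in CD24+ and 8.91 to 9.12 in CD172a+ arrays, a difference of 1.84 ± 0.21 (adjusted p = 2.8e-05). In culture it read 7.62 to 9.51 in CD24+ and 6.01 to 6.66 in CD172a+ arrays, a difference of 2.42 ± 0.21 (adjusted p = 5.7e-06). The 2 subsets did not overlap in either tissue, and the 7.62 was again KO mouse 2, without which the difference in culture was 2.71.

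In all, 23 genes were higher in CD24+ cells of both tissues at the threshold (4.08% of all genes), among them the calcium-binding chaperone Calr, P4hb, Pdia3, Pdia4, Pdia6, Hsp90b1, Sdf2l1, Creld2 and Syvn1. Creld2 was higher by 1.13 ± 0.14 in spleen and 1.58 ± 0.14 in culture, and Sdf2l1 by 0.85 ± 0.10 and 1.40 ± 0.10. Hspa13, a relative of the HSP70 chaperones, was the 1 gene lower in both (-0.41 ± 0.08 and -0.34 ± 0.08, 3.35% of all genes). Atf6, Ddit3, Edem3 and Eif2ak3 were lower in spleen and higher in culture (1.94% of all genes). Of 23 further folding genes 10 were higher and 1 lower in spleen, and 7 and 3 in culture. Of 20 further genes of degradation 11 were higher and 1 lower in spleen, and 7 and 4 in culture. Of 41 further genes of translocation, glycosylation and export 18 were higher and none lower in spleen, and 20 and 2 in culture. Of 16 further regulators 6 were higher and 1 lower in spleen, and 2 and 6 in culture. Of the 41, Rpn1, a subunit of the enzyme that adds glycans, was higher by 0.96 in spleen and 1.56 in culture. Of the 17 chaperones outside the ER none was higher in either tissue, and 2 in spleen and 1 in culture were lower.

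**Figure D3:**
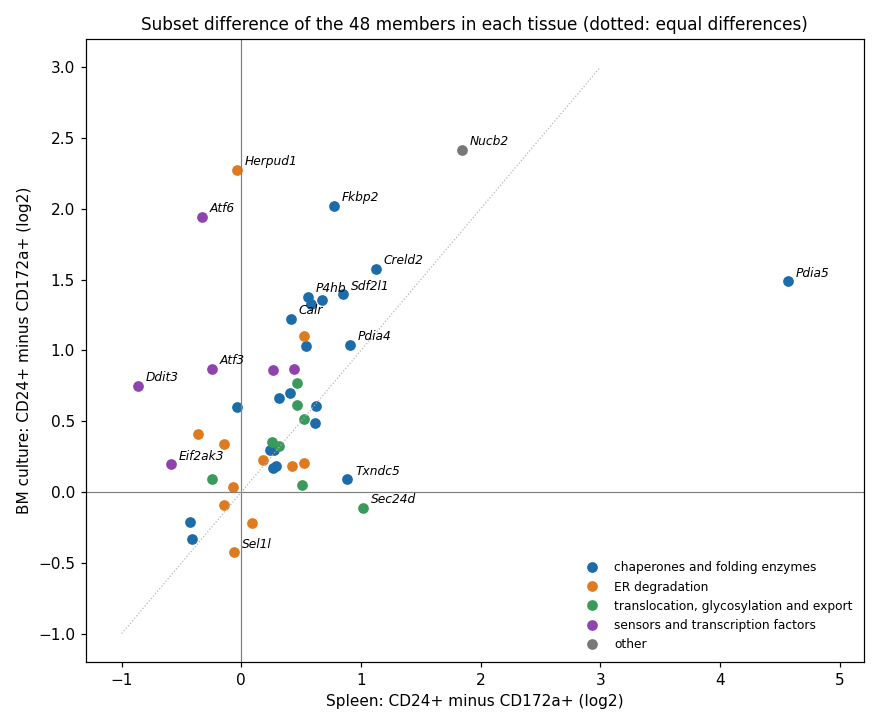
CD24+ minus CD172a+ difference on the log2 scale in spleen (x axis) and in BM culture (y axis), with 1 point per gene coloured by role and a dotted line where both are equal. Most points lie above 0 on both axes, Pdia5 lies far to the right at 4.57, and Herpud1 and Atf6 lie near 0 or below it in spleen and near 2 in culture.

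The subset difference itself differed between spleen and culture for 23 of the 48 (limma interaction, with 28.2% of all genes called, 12.5% more positive and 15.7% more negative in culture). It was more positive in culture for 17 and more negative for 6, and 5 of the 6 sensors and transcription factors were among the 17. Without the CD24+ array of KO mouse 2 in culture, 30 genes passed in this comparison (32.5% of all genes), and 38, as with it, in that of the cultured subsets alone (29.4% of all genes).

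Herpud1 differed between the subsets in culture. All 8 spleen arrays lay between 12.85 and 13.01, with a CD24+ minus CD172a+ difference of -0.04 ± 0.14. In culture CD24+ arrays read 12.65 and 12.88 in WT and 12.21 and 11.57 in KO, while CD172a+ arrays read 10.39 and 10.45 in WT and 9.99 and 9.37 in KO. The difference there was 2.27 ± 0.14, 4.84-fold (adjusted p = 3.9e-07), with 2.20 to 2.43 in the 4 mice, and the change between tissues was 2.31 ± 0.20 (adjusted p = 3.9e-06). The subsets overlapped in spleen and did not in culture.

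Atf6 turned its direction. In spleen it read 11.60 and 11.85 in CD24+ WT, 11.67 and 11.65 in CD24+ KO, 11.97 and 11.82 in CD172a+ WT, and 12.20 and 12.11 in CD172a+ KO, a difference of -0.33 ± 0.10 (adjusted p = 0.026). In culture it read 12.28 and 12.51 in CD24+ WT, 12.41 and 11.90 in CD24+ KO, 10.40 and 10.44 in CD172a+ WT, and 10.28 and 10.19 in CD172a+ KO, a difference of 1.94 ± 0.10 (adjusted p = 9.4e-08). The CD24+ array was higher in culture in 4 of 4 mice and in spleen in 1 of 4, and the change between tissues was 2.28 ± 0.14 (adjusted p = 2.6e-07).

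The other sensors changed less. Ddit3 was lower in CD24+ cells of spleen by 0.86 ± 0.13 and higher in culture by 0.75 ± 0.13, a change of 1.62 ± 0.19 (adjusted p = 4.1e-05). Atf3, a stress-induced transcription factor, had a difference of -0.24 ± 0.10 in spleen (adjusted p = 0.10) and was higher by 0.87 ± 0.10 in culture. Eif2ak3 was lower by 0.59 ± 0.06 in spleen and higher by 0.20 ± 0.06 in culture. Ern1 was higher in both (0.44 ± 0.15 and 0.87 ± 0.15), and its change between tissues missed the threshold (adjusted p = 0.16). Xbp1 had a difference of 0.27 ± 0.11 in spleen (adjusted p = 0.10) and was higher by 0.86 ± 0.11 in culture. Thus each of the 6 passed as higher in CD24+ cells of the culture, and Ern1 passed as higher in spleen, where the Xbp1 difference was also positive in 4 of 4 mice (0.18 to 0.35).

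Among the folding genes, Fkbp2, a prolyl isomerase of the ER, was higher in CD24+ cells by 0.77 ± 0.13 in spleen and by 2.02 ± 0.13 in culture (change 1.25, adjusted p = 0.00021). Changes the other way were fewer. That of Pdia5 was -3.08 ± 0.38 (adjusted p = 7.2e-05). Sec24d, an adaptor of the vesicles that leave the ER, was higher in CD24+ cells of spleen by 1.02 ± 0.06 and had a difference of -0.11 ± 0.06 in culture, a change of -1.13 ± 0.08 (adjusted p = 6.4e-07). Txndc5, another disulfide isomerase, was higher by 0.89 ± 0.08 in spleen and had a difference of 0.09 ± 0.08 in culture (change -0.80, adjusted p = 0.00020).

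**Figure D4:**
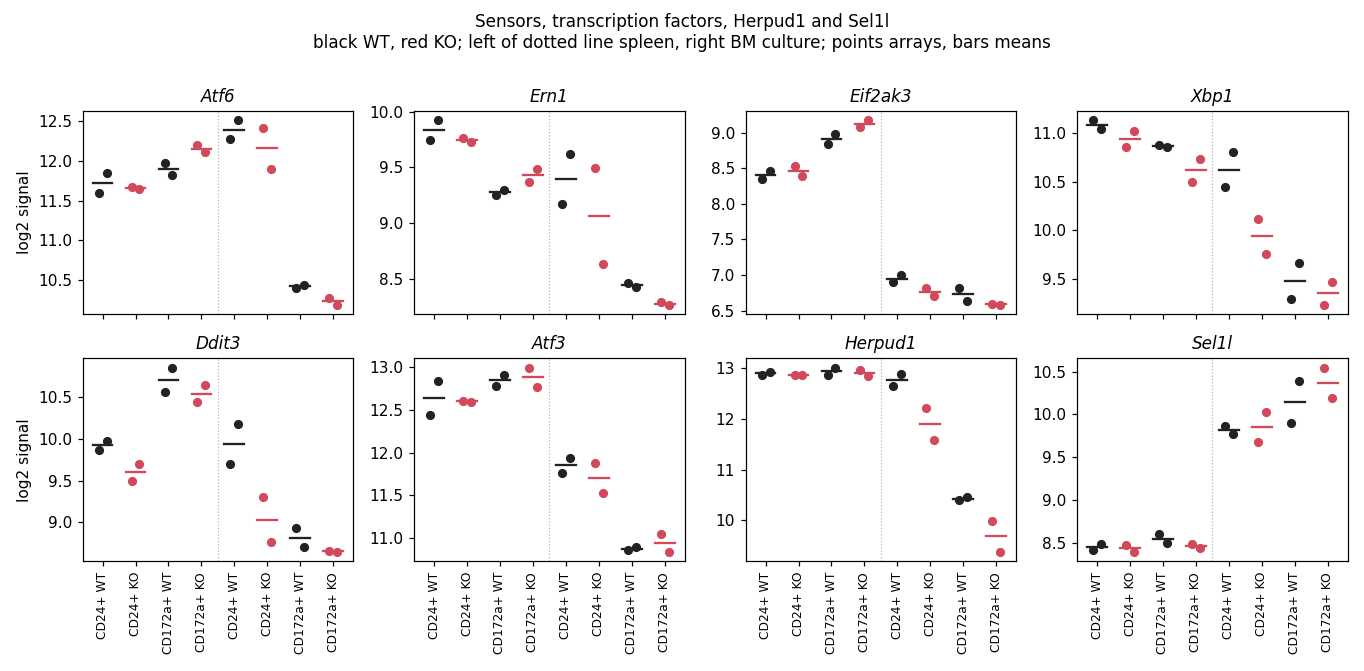
Log2 signal (y axis) of the 6 sensors and transcription factors and of Herpud1 and Sel1l in the 8 groups (x axis), with 1 point per array and a bar at the mean of 2. Herpud1 and Atf6 are at 11.60 or above in both spleen subsets and at 9.37 to 10.45 and 10.19 to 10.44 in cultured CD172a+ arrays, and as deposited Eif2ak3 is lower and Sel1l higher in every culture array than in every spleen array.

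Activated culture was compared with spleen on values centred on each array's median, since the median of an array as deposited was 7.29 to 7.32 for spleen and 6.85 to 6.92 for culture. The scaling moves these results. In CD24+ cells 14 of the 48 were higher and 18 lower in culture, where 76.6% of all genes passed (47.1% higher, 29.5% lower), and as deposited the split was 6 to 34. Without the CD24+ array of KO mouse 2 in culture it was 18 to 17 (74.7% of all genes). In CD172a+ cells 13 were higher and 28 lower, where 78.9% of all genes passed (49.4% higher, 29.5% lower), and as deposited it was 7 to 35. The median of all genes was 0.13 in CD24+ and 0.15 in CD172a+ cells after centring, and -0.34 and -0.28 as deposited. Members that passed in 1 direction under centring, quantile normalization and the deposited values alike were 6 higher and 18 lower in CD24+ cells (13.6% and 27.7% of all genes) and 7 higher and 27 lower in CD172a+ cells (16.4% and 27.3%).

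Of 11 genes of ER degradation 6 were higher and 1 lower in cultured CD24+ cells (47.1% and 29.5% of all genes). In cultured CD172a+ cells 5 were higher and 4 lower (49.4% and 29.5% of all genes). The counts of higher genes thus lay near the shares of all genes. Among the higher ones, Ube2j1 and Derl3 in CD24+ cells and Derl3 in CD172a+ cells turned their sign under another scaling. Sel1l, which holds the Syvn1 complex together, read as deposited 8.39 to 8.60 over spleen and 9.67 to 10.55 over culture, so that the tissues did not overlap. After centring it was higher in culture by 1.85 ± 0.11, 3.62-fold, in CD24+ cells (adjusted p = 1.7e-08) and by 2.18 ± 0.11 in CD172a+ cells (adjusted p = 3.0e-09). Edem1, a lectin-like protein that hands glycoproteins to degradation, was higher by 1.59 ± 0.06 and 1.07 ± 0.06, Edem2 by 0.85 ± 0.06 and 1.12 ± 0.06, and Derl2 by 0.84 ± 0.10 and 1.12 ± 0.10. All 4 kept their direction and call under the 3 scalings in both subsets. On the lower side Os9 did so too (-0.29 in CD24+ and -0.43 in CD172a+ cells after centring). In CD172a+ cells Herpud1, Edem3 and Syvn1 were also lower under the 3 scalings (-2.45, -0.85 and -0.85 after centring).

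Of 22 chaperones and folding enzymes 6 were higher and 9 lower in cultured CD24+ cells after centring, and 6 and 13 in cultured CD172a+ cells. Of 8 genes of translocation, glycosylation and export these counts were 1 and 4, and 2 and 4. Of 6 sensors and transcription factors they were 1 and 3, and 0 and 6. Over all genes the shares were 47.1% and 29.5% in CD24+ cells, and 49.4% and 29.5% in CD172a+ cells. Several folding and signalling genes lay on the lower side in both subsets under the 3 scalings. Eif2ak3 read 8.35 to 9.17 in spleen and 6.58 to 7.0 in culture as deposited, and was lower after centring by -1.11 ± 0.07 in CD24+ and -1.93 ± 0.07 in CD172a+ cells. Dnajb9, a J-domain partner of Hspa5 and a target of Xbp1, was lower by -1.22 ± 0.10 and -1.47 ± 0.10, P4hb by -0.68 ± 0.18 and -1.53 ± 0.18, Spcs3, a subunit of signal peptidase, by -0.91 ± 0.13 and -1.25 ± 0.13, and Nucb2 by -1.68 ± 0.22 and -2.29 ± 0.22. As means over both genotypes, Sdf2l1, Creld2, Pdia4 and Dnajc3 were also lower in culture (Sdf2l1 -0.77 ± 0.10 and -1.35 ± 0.10). In CD24+ cells the centred culture minus spleen difference was -0.06 in WT and -1.48 in KO for Sdf2l1, 0.24 and -1.18 for Creld2, -0.23 and -1.57 for Pdia4, and 0.14 and -0.69 for Dnajc3, and these values within a genotype carry no test of their own. For none of the 4 did the test of genotype by tissue pass.

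A pair of genes moved in opposite directions in the 2 subsets under the 3 scalings. Atf6 was higher in cultured CD24+ cells by 1.04 ± 0.11 (adjusted p = 2.5e-06) and lower in cultured CD172a+ cells by -1.27 ± 0.11 (adjusted p = 3.8e-07). Pdia5 was lower in cultured CD24+ cells by -1.89 ± 0.28 (adjusted p = 5.3e-05) and higher in cultured CD172a+ cells by 1.15 ± 0.28 (adjusted p = 0.0022). Herpud1 was lower in cultured CD172a+ cells by -2.45 ± 0.15, 5.45-fold (adjusted p = 2.1e-08). Its difference in CD24+ cells was -0.10 ± 0.15 after centring, -0.63 under quantile normalization and -0.56 as deposited. The centred difference in CD24+ cells was 0.31 in WT and -0.51 in KO, without a test within a genotype. Hspa5 was higher under the 3 scalings in CD24+ cells (1.00 ± 0.09 after centring), and in CD172a+ cells its direction turned with the scaling (0.32 after centring, -0.10 as deposited).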

How the data were processed

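Per the labels, RNA of 16 sorted DC samples was amplified (Ovation Pico WTA) before hybridization. The deposited files hold a log2 signal for each probe set, as normalized by the authors, and the sources used here do not give the method. That the unit is log2 was judged from the range (3.06 to 14.6). Of 30177 probe sets 21789 had 1 symbol, and the one with the highest mean was kept per gene (19938 genes). The 48 members, their roles, the other gene lists and the motifs were chosen with earlier results of these data known. The genes named are members, genes of other lists that passed, examples of a list, and cell markers. A name outside the members is thus not itself a call.

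Tests used limma 3.58.1 in R 4.3.3: 1 mean per group over 16 arrays, and, for genotype by subset, the difference between the 2 arrays of each mouse. P-values were 2-sided, with Benjamini-Hochberg adjustment over all genes, and fits were tested on simulated data. The labels give the mouse of each array, which pairs the subsets. Deviations from group means of paired arrays correlated over genes at -0.096 (WT, spleen), 0.20 (KO, spleen), 0.20 (WT, culture) and 0.39 (KO, culture). Alternatives covered scaling, a filter at log2 6, probe set choice, a variance trend, blocks, arrays of 1 tissue, and each array left out. The number of arrays, 2 per group, limits the precision.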

Additional observations from a re-analysis of the deposited data

Results flagged for a closer look

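The effect of genotype differed between the cultured subsets for 2 genes by the test of that difference, namely Sdf2l1 (-1.55) and Pdia4 (-1.77), given as the KO minus WT difference in CD24+ cells less that in CD172a+ cells on the log2 scale. Both genes fell in KO in CD24+ cells, and the calls depended on single mice as given above. Of 8 alternatives of processing the call held in 2 for Sdf2l1 and 1 for Pdia4.

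The subset difference (CD24+ minus CD172a+, log2) differed between culture and spleen for 23 genes by the interaction test. It was more positive in culture for Herpud1 (2.31), Atf6 (2.28), Ddit3 (1.61), Fkbp2 (1.25), Atf3 (1.11), P4hb (0.82), Calr (0.81), Eif2ak3 (0.78), Edem3 (0.78), Hsp90b1 (0.75), Pdia6 (0.68), Hspa5 (0.64), Xbp1 (0.59), Syvn1 (0.58), Sdf2l1 (0.54), Dnajc3 (0.49) and Edem1 (0.48). It was more negative in culture for Pdia5 (-3.08), Sec24d (-1.13), Txndc5 (-0.80), Sec61a1 (-0.45), Edem2 (-0.31) and Derl3 (-0.24). Groups of 2 arrays are too small for a test of single arrays that stand apart.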

How the results depend on the processing

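The 1 call in spleen CD24+ cells (Derl3) became 0 with the replicate number as a block and 0 with spleen arrays alone, and 0 to 1 with an array left out. The 8 calls in cultured CD24+ cells became 2 with the replicate block and 1 with culture arrays alone, and 3 to 27 with an array left out. WT and KO replicates share only a number, so this block takes up residual degrees of freedom without a known pairing. The 2 genotype by subset calls in culture became 0 under quantile normalization, median centring, the mean of probe sets, all probe sets, a variance trend and culture mice alone, 1 with the filter at log2 6, and 0 to 9 with a mouse left out. For genotype by tissue in CD24+ cells, 0 calls became 0 to 12 with an array left out. Mouse as a random block left the count of members called within 1.5 times of that reported in each comparison but the 2 of genotype by subset, where it was not run.

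In culture against spleen 12 values of differences past the threshold turned their sign. With members that had not passed, 15 of the 48 in CD24+ and 6 in CD172a+ cells turned under either scaling. Of those that had passed, in CD24+ cells these were, under quantile normalization, Calr (-0.086), Pdia3 (-0.029) and Ube2j1 (-0.23) and, as deposited, Calr (-0.19), Ube2j1 (-0.27), Manf (-0.11), Fkbp11 (-0.18) and Derl3 (-0.24). In CD172a+ cells these were Hspa5 (-0.13 under quantile normalization, -0.10 as deposited) and, as deposited, Fkbp11 (-0.088) and Derl3 (-0.00050). The cause was not tested. Over all comparisons, counts of members called stayed within 1.5 times of the reported ones in 99 alternatives and moved further in 11, and with an array or mouse left out these numbers were 76 and 12. All counts that moved further were in comparisons of genotypes, and those that stayed include comparisons without any call. With 2 arrays per group, each difference is resolved to about its standard error at best, and that error pools the spread of spleen and culture.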
